A study of Macaca fascicularis with 6 samples.

Results

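Bile acid genes of the liver, 30 in number, were examined in animals given a liver X receptor (LXR) ligand and in animals given vehicle. They had been chosen by name, for synthesis, side chain shortening and conjugation, transport across the canalicular and basolateral membranes of the hepatocyte, and feedback, and a gene counted as present when a probe set carried its symbol and no other. Of the 30 genes, 27 had such a probe set, out of 19775 gene symbols on the array, with 48 probe sets in all. HSD3B7, SCP2 and NR1H4, the last of which encodes the bile acid receptor FXR, were not analysed here. Total RNA from liver of 6 cynomolgus macaques (Macaca fascicularis) had been hybridised to Affymetrix arrays, 1 animal per array. The LXR ligand had been given to 3 of the animals, whose array titles carry the unexplained letters GW, and vehicle to the other 3. The identity of the ligand, its dose, the length of treatment and the age of the animals were not given in the sources used here. The probes are those of a human array, so each macaque gene carries a human symbol and a base difference between the species can dim a probe set. Of the 27 symbols, 26 also occur among the macaque gene names of the annotation for T2T-MFA8v1.1, AKR1C4 being the exception.

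Bile acids are made from cholesterol in hepatocytes, by a classical route that opens with CYP7A1 and an alternative route through CYP27A1 and CYP7B1. CYP8B1 adds the hydroxyl group that distinguishes cholic acid, and peroxisomal enzymes then shorten the side chain before the acid is joined to glycine or taurine. ABCB11 pumps the conjugated acids into bile and SLC10A1 takes returning acids up from portal blood. When bile acids are plentiful, FXR induces NR0B2, a repressor also called SHP, and FGF19 from the intestine acts on hepatocytes through FGFR4 and its partner KLB, and both arms lower CYP7A1. LXR senses oxidised cholesterol, and Cyp7a1 of mice and rats is one of its known targets.

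Values are MAS5 signals, an intensity in arbitrary units, given in the order of arrays 1 to 3 of each group, and a gene is represented by its brightest probe set. Differences are of log2(signal + 16), ligand minus vehicle, which understates the change of dim probe sets, and were tested for the 27304 probe sets whose mean over the 6 arrays reached the median of such means, 129. All 6 arrays had the same trimmed mean signal of 500.1 and medians of 132, 129 and 139 on the ligand arrays and 111, 138 and 139 on the vehicle arrays. On the first principal component of the tested probe sets ligand array 1 stood apart, at -89.8 against 0.63 to 36.8 on the other 5 arrays. The log2 ratio of 3' to 5' signal of the actin control, a sign of RNA integrity that is higher in degraded RNA, was 2.62, 2.65 and 4.0 on the ligand arrays and 2.15, 2.5 and 3.06 on the vehicle arrays, with a two-sided exact permutation p of 0.4 where 0.1 is the smallest that 3 arrays against 3 allow.

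With 24 of the 27 genes bright enough to be tested, no bile acid gene passed limma's test at an adjusted p of 0.05, and neither did any probe set of the whole table (0 of 27304, 0%), of which 1523 had an unadjusted p under 0.05. CYP8B1 and CYP7B1 had lower signals on every ligand array than on any vehicle array, and NR0B2 had a 1.78-fold higher signal with the ligand but with overlapping groups. The 24 tested genes split into 13 that were higher and 11 that were lower, around a median log2 difference of 0.018, beside 50.3% higher and a median of 0.0032 over all tested probe sets. An unadjusted p under 0.05 was found for 2 of the 24 genes (8.33%), NR0B2 and CYP8B1, beside 5.58% of all tested probe sets (3.24% higher and 2.33% lower). The groups did not overlap for 2 of the 24 (8.33%), CYP8B1 and CYP7B1, beside 11.0% of all tested probe sets, so neither share lay far from that of the table. In the lower direction alone the 2 genes stand beside 4.96%, and no tested gene was higher without overlap, beside 5.99%. In pieces of whole liver, fewer cells of a type and less RNA per cell cannot be told apart.

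**Figure D1:**
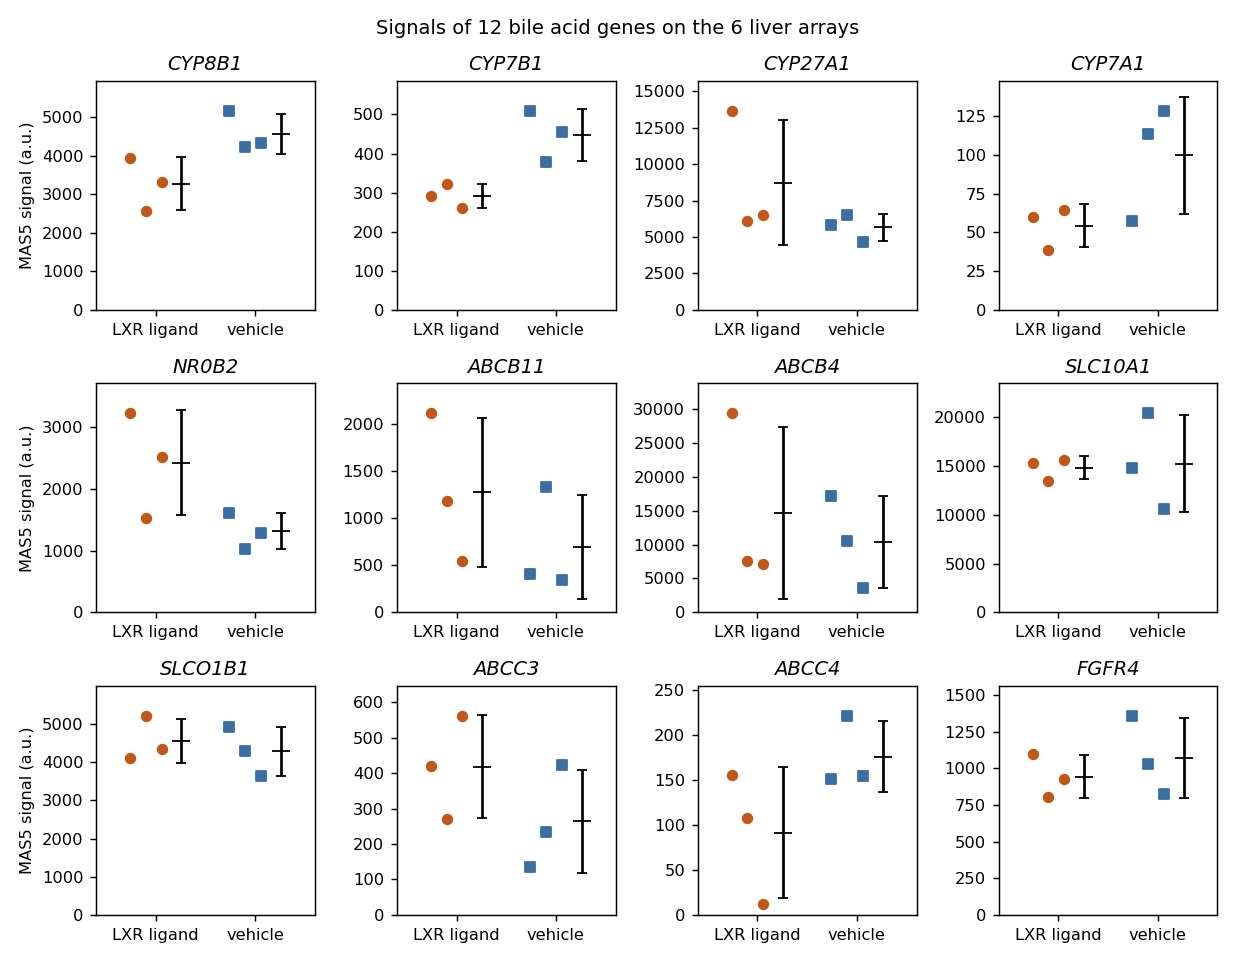
MAS5 signal (vertical axes, arbitrary units, each from 0) of 12 bile acid genes on the 3 LXR ligand arrays (circles) and the 3 vehicle arrays (squares), arrays 1 to 3 drawn left to right within each group, with the mean and SD beside them. CYP8B1 and CYP7B1 are lower on all 3 ligand arrays, NR0B2 overlaps only through ligand array 2 at 1529 and vehicle array 1 at 1614, and ABCB11 and ABCB4 vary several-fold within each group.

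Among the synthesis enzymes, CYP8B1 and CYP7B1 were lower with the ligand, CYP27A1 was higher on 1 array, and CYP7A1 was too dim to be tested. CYP8B1 (probe set 232494_at), which directs synthesis toward cholic acid, had signals of 3954, 2564 and 3329 on the ligand arrays, against 5167, 4231 and 4328 on the vehicle arrays. The highest ligand array lay below the lowest vehicle array, with means of 3282 ± 696 with the ligand and 4575 ± 515 with vehicle (SD, n = 3 per group). The log2 difference was -0.49 ± 0.21 (SE), with a 95% interval of -0.97 to -0.018, and limma's adjusted p was 0.879. CYP7B1 (235438_at), the oxysterol hydroxylase of the alternative route, had signals of 291, 322 and 262 on the ligand arrays, against 509, 378 and 455 on the vehicle arrays. The groups again did not overlap, with means of 292 ± 29.997 with the ligand and 448 ± 65.7 with vehicle (SD, n = 3 per group) and a log2 difference of -0.59 ± 0.28 (SE) (95% interval -1.21 to 0.033, limma adjusted p = 0.880). Another CYP7B1 probe set of lower mean signal (207386_at) read 286, 228 and 174 on the ligand arrays, against 171, 373 and 249 on the vehicle arrays, and there the groups overlapped, with a log2 difference of -0.16 ± 0.39 (SE).

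CYP27A1 (203979_at), the mitochondrial sterol hydroxylase that opens the alternative route, had signals of 13642, 6081 and 6478 on the ligand arrays, against 5829, 6507 and 4635 on the vehicle arrays. Ligand array 1 was 2.24-fold above the lowest ligand array, and the remaining 5 arrays lay within 4635 to 6507. The log2 difference was 0.54 ± 0.30 (SE) (limma adjusted p = 0.890), and it was 0.16 without ligand array 1. CYP7A1 (207406_at), the enzyme whose step sets the pace of the classical route, read 60.1, 38.5 and 64.3 on the ligand arrays, against 57.0, 114 and 128 on the vehicle arrays. All 6 signals were below 129, vehicle array 1 lay among the ligand arrays, and the means were 54.3 ± 13.8 with the ligand and 99.6 ± 37.6 with vehicle (SD, n = 3 per group). In the fit without the filter its log2 difference was -0.68 ± 0.57 (SE), with a 95% interval of -1.93 to 0.58 and a limma adjusted p of 0.962, where 0 of 54613 probe sets passed and 5.29% had an unadjusted p under 0.05. Without detection calls, which were not used here, a transcript that is absent and one that is merely dim look alike.

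The remaining synthesis enzymes had overlapping groups and gave no call. CYP39A1, a hydroxylase of oxysterols made in other tissues, ran from 4219.9 to 7621 with a log2 difference of -0.10 ± 0.23 (SE), and its other tested probe set gave -0.39 ± 0.33 (SE). AKR1D1, the reductase that gives bile acids their bent ring, ran from 635 to 887 with a log2 difference of -0.090 ± 0.24 (SE). AKR1C4, a hydroxysteroid dehydrogenase, ran from 11579 to 21535 with a log2 difference of 0.20 ± 0.23 (SE), and its AKR1C relatives may share its probes. CYP46A1, a cholesterol hydroxylase known mainly from brain, was dim and variable, with signals of 62.0, 162 and 252 on the ligand arrays, against 35.1, 348 and 156 on the vehicle arrays. Its vehicle arrays alone differed 9.94-fold, and the 95% interval of its log2 difference, -1.64 to 1.79, holds large changes either way.

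Of the 5 measured genes of side chain shortening and conjugation, 4 were lower and 1 higher on the ligand arrays, none of them past the threshold, and the median log2 difference was -0.30. BAAT (206913_at), which joins the acid to glycine or taurine, had signals of 1596, 2368 and 1499 on the ligand arrays, against 2049, 2159 and 2971 on the vehicle arrays. Ligand array 2 lay within the vehicle range while the other ligand arrays lay below it, and the log2 difference was -0.40 ± 0.25 (SE) (limma adjusted p = 0.895). SLC27A5, the ligase that prepares bile acids for that step, had signals of 17286, 14208 and 14833 on the ligand arrays, against 18052, 25878 and 14648 on the vehicle arrays. Its vehicle array 2 was the high one, the log2 difference was -0.30 ± 0.22 (SE) and -0.080 without that array, and another, far dimmer probe set gave 0.37 ± 0.81 (SE). ACOX2, the peroxisomal oxidase for branched side chains, had a log2 difference of 0.30 ± 0.24 (SE), with signals of 17212, 12533 and 15059 on the ligand arrays, against 13859, 15289 and 8289 on the vehicle arrays. Vehicle array 3 alone lay below the other 5 arrays, and without it the log2 difference was 0.025. HSD17B4, the bifunctional enzyme that follows, ran from 16338 to 31135 with a log2 difference of -0.13 ± 0.23 (SE). AMACR, the racemase of bile acid intermediates, was dim and ran from 51.8 to 443. Its log2 difference of -0.68 ± 0.63 (SE) was -0.16 when ligand array 3 was left out.

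**Figure D2:**
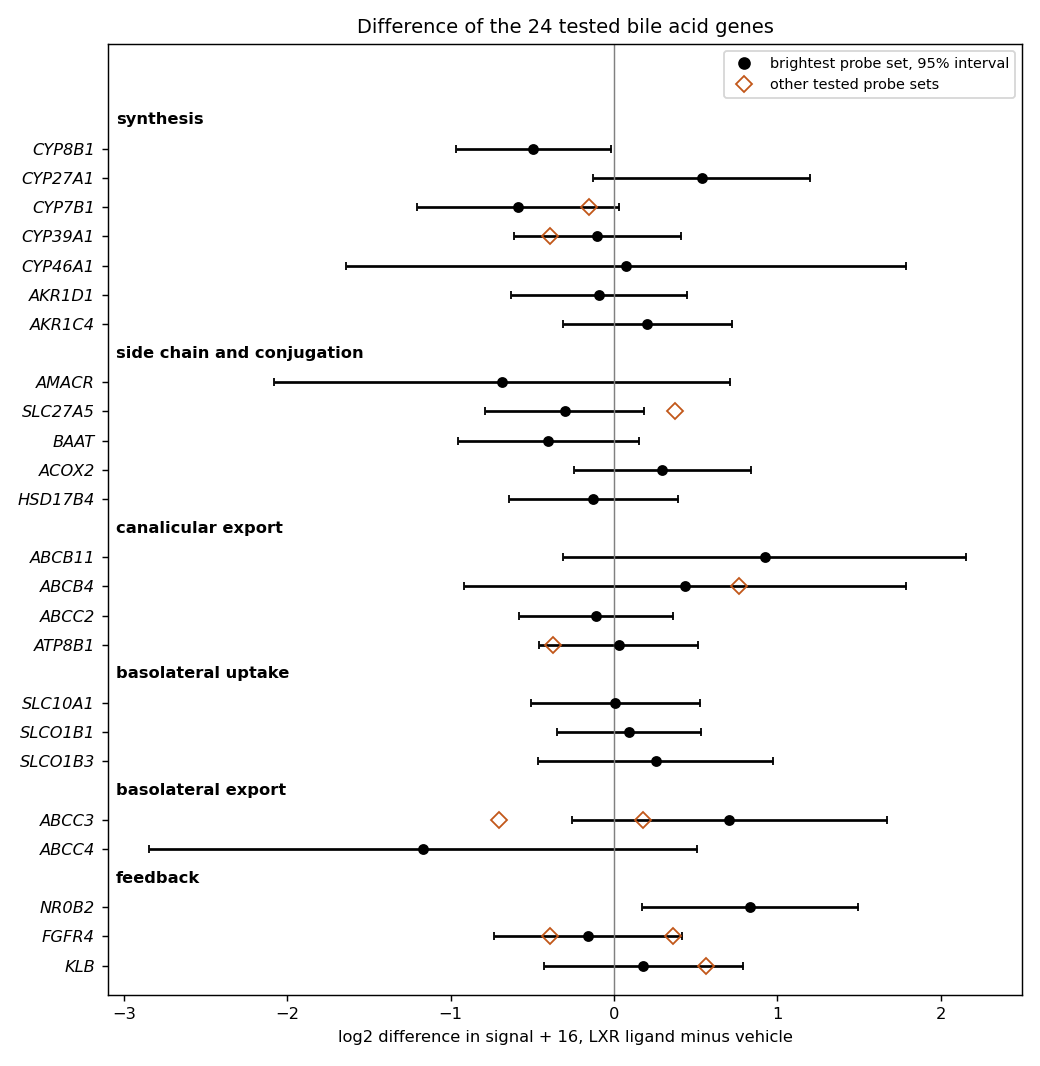
Log2 difference in signal + 16, ligand minus vehicle (horizontal axis), of the 24 tested bile acid genes in 6 groups by role, with the 95% interval of the brightest probe set (filled circles, 3 arrays per group) and the estimates of other tested probe sets (open diamonds). The intervals of CYP8B1 and NR0B2 leave out 0, those of the other 22 genes include it, and for SLC27A5, ATP8B1, ABCC3 and FGFR4 at least 1 other probe set lies on the opposite side of 0.

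At the canalicular membrane, ABCB11 and ABCB4 had higher mean signals with the ligand, but animals of the same group differed more than the groups did. ABCB11 (211224_s_at), the bile salt export pump, had signals of 2118, 1183 and 543 on the ligand arrays, against 409, 1339 and 349.8 on the vehicle arrays. Signals spanned 3.90-fold among the ligand arrays and 3.83-fold among the vehicle arrays, and vehicle array 2 lay above ligand arrays 2 and 3. The log2 difference was 0.92 ± 0.56 (SE), with a 95% interval of -0.31 to 2.16 and a limma adjusted p of 0.895, and it was 0.46 without ligand array 1 and 1.52 without vehicle array 2. ABCB4 (207819_s_at), the transporter that moves phosphatidylcholine into bile, had signals of 29323, 7593 and 7099 on the ligand arrays, against 17124, 10493 and 3555 on the vehicle arrays. Ligand array 1 was the highest and vehicle array 3 the lowest of the 6, with spans of 4.13-fold and 4.82-fold within the ligand and vehicle groups. Another ABCB4 probe set (1570505_at) read 4415, 1273 and 1989 on the ligand arrays, against 2267, 2448 and 399 on the vehicle arrays, with the same arrays at the top and the bottom. The log2 differences were 0.43 ± 0.61 (SE) and 0.77 ± 0.65 (SE), and the first was -0.23 without ligand array 1.

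ABCC2, which exports conjugated organic anions into bile, and ATP8B1, a flippase that keeps the canalicular membrane in order, varied less. ABCC2 ran from 1991 to 2738 over the 6 arrays, with a log2 difference of -0.11 ± 0.21 (SE) and a 95% interval of -0.58 to 0.36. The brightest ATP8B1 probe set (214594_x_at) ran from 1255 to 1779.9, with a log2 difference of 0.028 ± 0.22 (SE). Another one (226302_at) read 1107, 1102 and 791 on the ligand arrays, against 1379, 1345 and 1151 on the vehicle arrays, lower on all 3 ligand arrays than on any vehicle array, with a log2 difference of -0.38 ± 0.23 (SE). The suffix x in such names marks probes that can match other transcripts, so the pair cannot be reduced to 1 value here.

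The 3 uptake carriers of the basolateral membrane had overlapping groups and differences smaller than their errors. SLC10A1 (207185_at), the sodium-dependent carrier of conjugated bile acids, had signals of 15314, 13495 and 15667 on the ligand arrays, against 14806, 20393 and 10549 on the vehicle arrays. The ligand arrays lay between the vehicle arrays, with means of 14825 ± 1166 with the ligand and 15249 ± 4937 with vehicle (SD, n = 3 per group) and a log2 difference of 0.0078 ± 0.23 (SE), whose 95% interval of -0.51 to 0.52 leaves out a 2-fold change either way. SLCO1B1, a sodium-independent carrier of bile acids and many drugs, ran from 3629.8 to 5216, with a log2 difference of 0.093 ± 0.20 (SE) (95% interval -0.35 to 0.53). SLCO1B3, its close paralogue, had signals of 11863, 13679 and 10965 on the ligand arrays, against 12141, 15466 and 5552 on the vehicle arrays. Vehicle array 3 was the low one there, and the log2 difference of 0.26 ± 0.32 (SE) became -0.18 without it. How far the probes of these paralogues read each other's transcript is not known from the files.

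Export back to blood was read by 4 genes, of which 2 were bright enough to be tested. ABCC3 (239217_x_at), an exporter known to increase in cholestasis, had signals of 422, 271 and 562 on the ligand arrays, against 137, 233 and 423 on the vehicle arrays. The groups overlapped through vehicle array 3, which lay between ligand arrays 1 and 3, and the log2 difference was 0.71 ± 0.43 (SE) (limma adjusted p = 0.895). Its other tested probe sets gave 0.18 ± 0.44 and -0.70 ± 0.63 (SE), and dimmer, untested ones gave 1.16 and 0.15. The tested probe sets differed in sign, so no direction is given for ABCC3. ABCC4 (1554918_a_at), another such exporter, read 155, 108 and 11.9 on the ligand arrays, against 151, 221 and 154 on the vehicle arrays. Ligand array 3 was far below the other 5 arrays, and the log2 difference of -1.17 ± 0.76 (SE) was -0.38 without it. With means of 91.4 with the ligand and 175 with vehicle, this probe set reached the cut of 129 only through the vehicle arrays. Dimmer, untested probe sets of ABCC4 gave -0.60, 0.062 and -1.09. SLC51A and SLC51B, the chains of a heteromeric bile acid exporter, were dim, with SLC51A at 90.5, 179 and 137 on the ligand arrays, against 26.9, 194 and 38.5 on the vehicle arrays. SLC51B read 16.6, 13.2 and 9.38 on the ligand arrays, against 10.8, 34.4 and 6.87 on the vehicle arrays, and both pairs of groups overlapped. In the fit without the filter their log2 differences were 0.90 ± 0.68 and -0.12 ± 0.39 (SE).

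Among the feedback genes NR0B2 had the smallest p of all 24 tested genes, while the tested probe sets of the FGF19 receptor pair gave no call and had overlapping groups. NR0B2 (206410_at), the repressor SHP, had signals of 3219, 1529 and 2512 on the ligand arrays, against 1614, 1031 and 1291 on the vehicle arrays. Ligand arrays 1 and 3 lay above all vehicle arrays and ligand array 2 lay just below vehicle array 1, with means of 2420.1 ± 848 with the ligand and 1312 ± 292 with vehicle (SD, n = 3 per group). The log2 difference was 0.83 ± 0.30 (SE), with a 95% interval of 0.17 to 1.49, an unadjusted p of 0.0182 and a limma adjusted p of 0.829 over all tested probe sets. Leaving out 1 array at a time gave 0.60 to 1.13, lowest without ligand array 1 and highest without ligand array 2. The unadjusted limma p was 0.078 without ligand array 1, 0.053 without ligand array 3 and 0.069 without vehicle array 2. It was 0.0025 without ligand array 2.

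FGFR4 (211237_s_at), the receptor for FGF19, had signals of 1098, 802 and 930.4 on the ligand arrays, against 1358, 1029.9 and 823 on the vehicle arrays. The ranges overlapped, with a log2 difference of -0.16 ± 0.26 (SE), and its other tested probe sets gave -0.39 ± 0.30 and 0.36 ± 0.41 (SE). KLB (244276_at), the partner that lets FGFR4 bind FGF19, had signals of 474, 514 and 511 on the ligand arrays, against 331, 491 and 520.1 on the vehicle arrays. Vehicle array 1 was the low one, the log2 difference was 0.18 ± 0.27 (SE), and another probe set gave 0.56 ± 0.55 (SE).

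**Figure D3:**
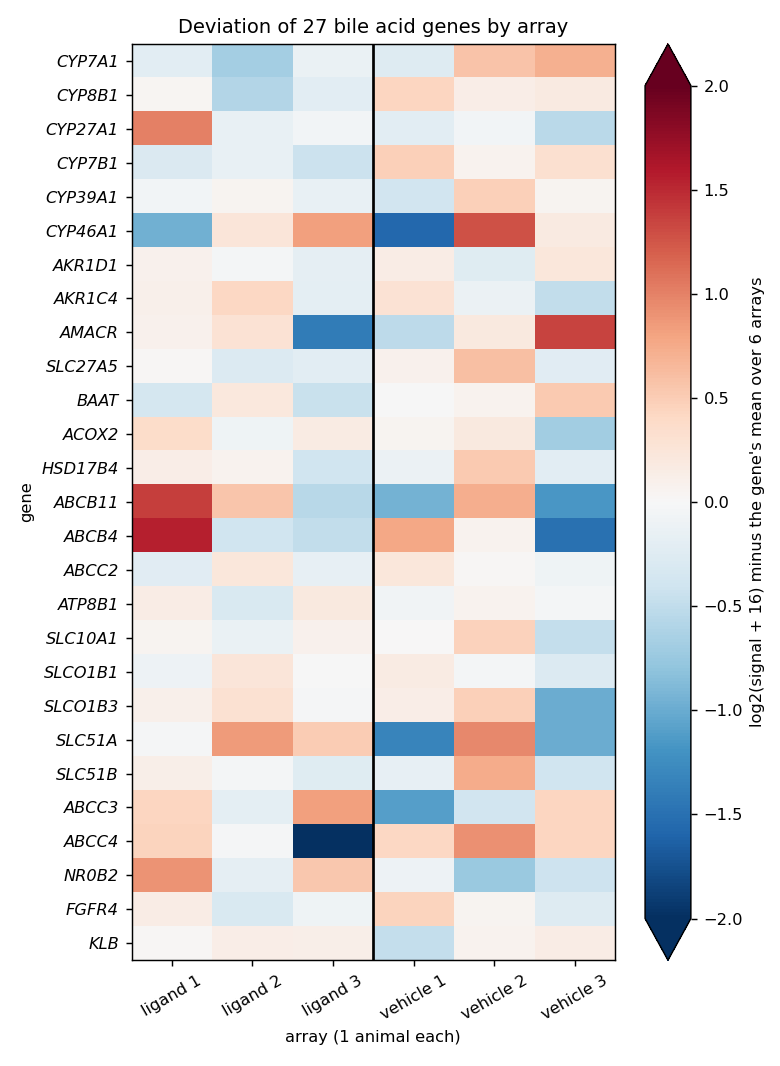
Deviation of log2(signal + 16) from each gene's mean over the 6 arrays (colour, red above and blue below, saturated beyond 2 either way) for the 27 bile acid genes with a probe set (rows) on the 3 ligand and 3 vehicle arrays (columns, 1 animal each). Ligand array 1 is high for CYP27A1, ABCB11, ABCB4 and NR0B2, and vehicle array 3 is low for ABCB11, ABCB4, ACOX2 and SLCO1B3.

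Single animals weighed on many of these genes. Ligand array 1, the array apart on the first principal component, was the highest of the 6 for 5 of the 24 tested genes (20.8%), beside 17.7% of all tested probe sets, and the 5 were CYP27A1, ACOX2, ABCB11, ABCB4 and NR0B2. Vehicle array 3 was the lowest for 8 of the 24 (33.3%), beside 14.2% of all tested probe sets, and vehicle array 2 the highest for 7 (29.2%), beside 18.4%. The genes lowest on vehicle array 3 were CYP27A1, AKR1C4, ACOX2, ABCB11, ABCB4, SLC10A1, SLCO1B1 and SLCO1B3, which include all 3 uptake carriers. The median deviation of the 24 genes from their own means was -0.16 on ligand array 3 and -0.15 on vehicle array 3, and 0.093, -0.036, 0.029 and 0.072 on ligand arrays 1 and 2 and vehicle arrays 1 and 2, while over all tested probe sets it was 0.055 on ligand array 3 and 0.061 on vehicle array 3. These 2 arrays also had the highest 3' to 5' ratios of their groups, and the part of RNA quality in the values was not tested. Without both of them, a choice made after seeing the data, CYP8B1 had a log2 difference of -0.55, CYP7B1 -0.50 and NR0B2 0.78, and 0 of the 24 genes had an unadjusted p under 0.05 in limma.

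**Figure D4:**
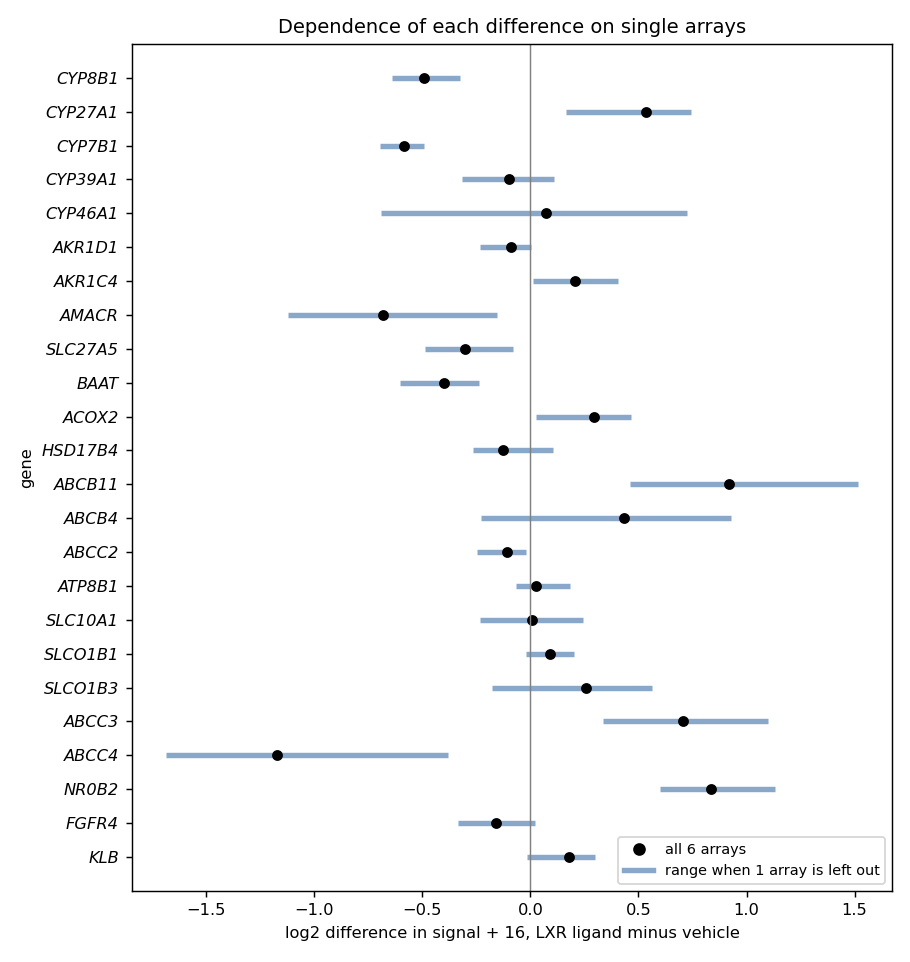
Log2 difference in signal + 16, ligand minus vehicle (horizontal axis), of each of the 24 tested bile acid genes with all 6 arrays (points) and the range when 1 array is left out in turn (bars). CYP8B1 stays between -0.64 and -0.33, CYP7B1 between -0.70 and -0.49 and NR0B2 between 0.60 and 1.13. The groups of CYP8B1 and CYP7B1 did not overlap, so leaving out 1 array could not turn their sign. NR0B2 is named for having the smallest p of the 24 genes. The bars of ABCB4, SLC10A1, SLCO1B3 and 8 other genes cross 0.

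The 95% interval of the log2 difference lay within 1 of 0, which is a 2-fold change either way, for 15 of the 24 tested genes (62.5%), beside 44.7% of all tested probe sets. The genes outside this were CYP27A1, CYP7B1, CYP46A1, AMACR, ABCB11, ABCB4, ABCC3, ABCC4 and NR0B2, for each of which a change of 2-fold or more lay within the interval. The SE had a median of 0.25 in the 24 genes, each read by its brightest probe set, and 0.35 over all tested probe sets. The shares of 62.5% and 44.7% are therefore not on equal terms. The median size of the log2 difference was 0.28 in the 24 genes and 0.25 over all tested probe sets. Of 10 further tested probe sets of 8 of these genes, 6 had the sign of the brightest one.

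Further genes of bile acid control and handling were read beside these. The list held 50 names, among them nuclear receptors, transporters, peroxisomal factors and detoxifying enzymes, with STAR also listed as STARD1. Of these 42 had a probe set of their own and 37 were tested, with 19 higher and 18 lower, 0 called by limma, 0 with an unadjusted p under 0.05 (beside 5.58% of all tested probe sets) and a median log2 difference of 0.059. The groups failed to overlap for 1 of the 37 genes, a smaller share than the 11.0% of all tested probe sets. This was MAFG, a small MAF repressor which in mice lowers Cyp8b1, with signals of 1862, 2359 and 3193 on the ligand arrays, against 1753, 1669 and 1659 on the vehicle arrays. The lowest ligand array was above the highest vehicle array, and the log2 difference was 0.51 ± 0.23 (SE) (limma adjusted p = 0.880).

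**Figure D5:**
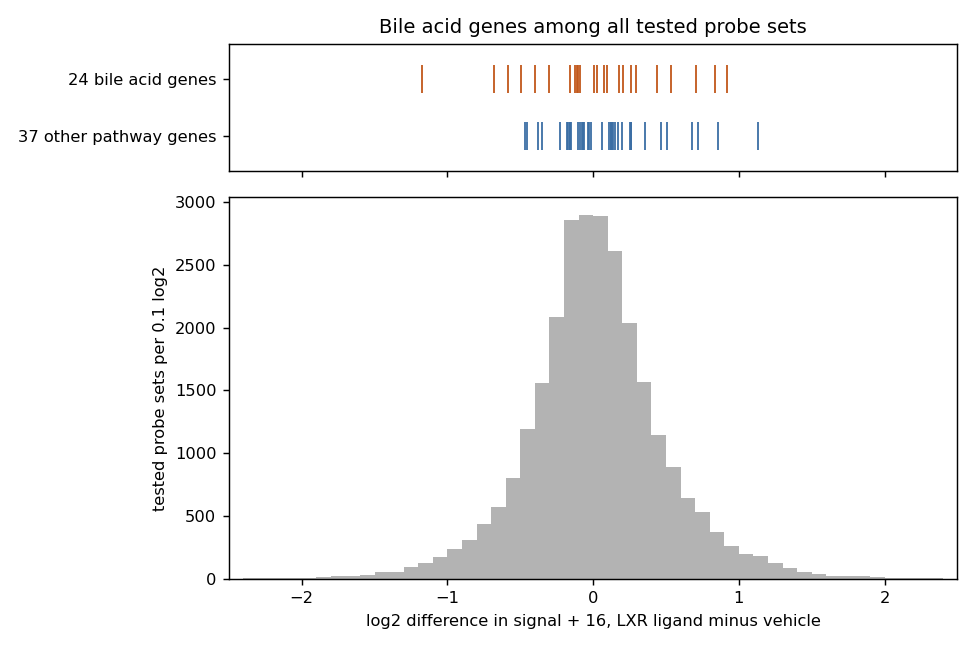
Log2 difference in signal + 16, ligand minus vehicle (horizontal axis), of the 24 tested bile acid genes and the 37 other tested pathway genes (ticks, upper panel) above the number of all tested probe sets per 0.1 of log2 difference (grey bars, lower panel). The bile acid genes run from -1.17 to 0.92 around a median of 0.018, and 12 of the 27304 probe sets lie beyond the plotted range of 2.5 either way.

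Defining products of hepatocytes such as ALB and APOA1 were bright on every array, with 7 of 11 hepatocyte markers higher, a median log2 difference of 0.077 and a summed signal of 1122568 to 1277889 on the ligand arrays and 1032287 to 1230437 on the vehicle arrays. Bile duct markers were dim, with 3 of 8 tested higher, a median of -0.13 and a sum of 2114 to 3443 on the ligand arrays and 2318 to 3043 on the vehicle arrays over 10 probe sets. Of the macrophage markers 8 of 8 tested were higher, with a median of 0.77. The macrophage sum over 10 probe sets did not overlap between the groups, at 11179 to 12656 on the ligand arrays and 5129 to 7526 on the vehicle arrays. Of the 8 tested macrophage markers, 5 were higher without overlap, beside 5.99% of all tested probe sets, where 11.0% did not overlap in either direction. An unadjusted limma p under 0.05 was found for 5 of the 8, all higher, beside 3.24% of all tested probe sets, and 0 were called. These shares are of single probe sets, not of sums, and the markers were chosen with earlier results of these data known. CLEC4F and TIMD4, macrophage markers too dim to be tested, were lower, with log2 differences of -1.76 and -0.55 and overlapping groups. Pericentral markers, of the zone that in rodents is known for Cyp7a1, had 3 of 8 higher and a median of -0.11, and periportal markers 0 of 5 higher and a median of -0.16. The pericentral marker GLUL was higher without overlap, with a log2 difference of 0.51 ± 0.17 (SE). The periportal marker HAL was lower with overlapping groups, at -0.72 ± 0.29 (SE). For endothelial and stellate markers the medians were 0.30 and 0.25, with 9 of 11 and 7 of 10 higher, and for T and NK cells 0.0019, with 2 of 4 higher. The endothelial marker VWF went the other way, at 157, 156 and 377 on the ligand arrays, against 4667, 2129 and 1340 on the vehicle arrays. Its log2 difference was -3.39 ± 0.47 (SE) (limma adjusted p = 0.319). CDH5, LYVE1 and ENG were higher without overlap. Of the stellate markers COL3A1 was higher and COL1A1 lower without overlap. For B and plasma cells, red cells and intestine the medians were 0.30, -1.71 and -0.53, over 3, 1 and 3 tested markers. Of the B and plasma cell markers 2 were higher, and MZB1 was lower without overlap, at -1.26 ± 0.56 (SE). The red cell value is that of HBB, a globin chain, which read 865, 609 and 599.7 on the ligand arrays, against 11085, 1255 and 828 on the vehicle arrays, and its log2 difference was -0.57 ± 0.31 (SE) without vehicle array 1. No marker was listed at 0 on any array, and the part of cell makeup in the bile acid genes was not tested.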

How the data were processed

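Liver RNA of 6 macaques was measured on 1 Affymetrix array each, and arrays were grouped by their titles, which match the treatment labels. The deposited file holds intensity values, MAS5 signals before any log, per the submitters' processing notes and the values themselves. Version, scaling target and filters are not given in the sources used here. The arrays had been scaled by the authors before deposit, since the 2% trimmed mean was 500.1 on each. Probe sets were named from the platform annotation, in which 41097 of 54675 carried 1 symbol.

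Log2(signal + 16) was tested two-sided with limma 3.58.1 (lmFit, then eBayes with trend) in R 4.3.3, without covariates, on 27304 probe sets whose mean signal reached the median over the array, leaving out 62 controls. P-values were adjusted by Benjamini-Hochberg over all of these, with a threshold of 0.05. Over the tested probe sets the SE had a median of 0.35. The code was tested on simulated data. Figures were drawn with matplotlib 3.10.9 in Python 3.11.15.

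The bile acid genes, further pathway genes, cell type markers and naming rule were chosen with earlier results of these data known. The rule named every bile acid gene by its brightest probe set. All 6 signals were to be shown where the groups did not overlap or the unadjusted p was under 0.05. They were also to be shown for 12 genes central to synthesis, transport and feedback, of which NR1H4 was not analysed. Further pathway genes were named by the criteria of overlap and p. The signals of ABCB4, ABCC3, ABCC4, ACOX2, BAAT, SLC27A5, SLCO1B3 and CYP46A1 are shown too, chosen after their values were seen.

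Alternatives were pseudocounts of 1 and 64, quantile normalization, centring on array medians, no filter or one at the 75th percentile, eBayes without trend or with robust estimation, weighting of arrays, a block for the replicate number, a threshold of 0.10, a gene's mean or other probe sets, and leaving out each array.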

Additional observations from a re-analysis of the deposited data

How the results depend on the processing

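With 3 animals per group, the number of arrays limits every value, and CYP7A1, CYP46A1, AMACR, ABCC4, SLC51A and SLC51B were dim. No bile acid gene passed limma's test under any alternative run, and the count of tested probe sets that passed was 0 in each, except that leaving out 1 array at a time gave 0 to 1. The count of bile acid genes with an unadjusted p under 0.05 was 1 with median centring and 1 to 3 when 1 array was left out. It was 0 without ligand array 3 and vehicle array 3 together, and 2 otherwise. The unadjusted limma p of CYP8B1 was 0.018 without ligand array 1 and 0.056 to 0.171 without each other array in turn. Without the intensity trend the 2 genes were CYP7B1 and NR0B2, with unadjusted p of 0.0418 and 0.0451 in limma, and CYP8B1 had 0.0977. When 1 array was left out, with the trend kept, the median log2 difference of the 24 tested bile acid genes was lowest without vehicle array 3 (-0.14). It was highest without vehicle array 2 (0.11). The cause of these changes was not tested.

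Signs turned for SLC10A1 with median centring (-0.014) and for ATP8B1 with array weights (-0.00065). They also turned on other probe sets of SLC27A5 (0.37), ATP8B1 (-0.38), ABCC3 (-0.70) and FGFR4 (0.36). Without ligand array 3 and vehicle array 3 together, chosen after seeing the data, they turned for CYP46A1 (-0.21), AKR1D1 (0.070), AMACR (0.35), ATP8B1 (-0.079), SLC10A1 (-0.27) and SLCO1B3 (-0.11). Leaving out 1 array gave ranges across 0 for CYP39A1 (-0.32 to 0.11), CYP46A1 (-0.69 to 0.73), AKR1D1 (-0.23 to 0.0033), HSD17B4 (-0.27 to 0.10), ABCB4 (-0.23 to 0.93), ATP8B1 (-0.065 to 0.19), SLC10A1 (-0.23 to 0.24), SLCO1B1 (-0.020 to 0.20), SLCO1B3 (-0.18 to 0.56), FGFR4 (-0.33 to 0.023) and KLB (-0.016 to 0.30).

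The labels do not say whether the replicate numbers pair the animals. The deviations of same-numbered arrays correlated at 0.040, -0.031 and 0.070. Ligand arrays 1 and 3 correlated best with the vehicle array of their own number, and ligand array 2 with vehicle array 1. With 3 arrays per group, such correlations cannot show whether the numbers pair. With the replicate number as a block, 0 probe sets and 0 bile acid genes passed in limma, and the count with an unadjusted p under 0.05 was 2. The unadjusted limma p of NR0B2 went from 0.0182 to 0.0043, with an adjusted p of 0.600. That of ABCB11 went from 0.128 to 0.062, and that of CYP7B1 rose from 0.061 to 0.092. The block left each log2 difference as it was, so the median stayed at 0.018.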
